A study of Mus musculus with 12 samples.

Results

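The costimulation and maturation markers examined here were 8 genes of mouse dendritic cells, Cd40, Cd80, Cd86, Cd83, Icosl, Tnfsf4, Tnfsf9 and Cd70, chosen by gene symbol from the 41709 genes of each count table. They were measured by RNA-seq in bone marrow-derived dendritic cells (BMDCs), which were grown for 10 days with GM-CSF and then isolated by surface MHC class II. CD18fl/fl mice were homozygous for a floxed Itgb2 (CD18) gene and carried no Cre. CD18-delta-CD11c mice carried the same floxed alleles and Cre under the CD11c promoter, which is active in dendritic cells and also in some macrophages. BMDCs of each genotype were left untreated or received lipopolysaccharide (LPS) at 100 ng/mL, for 24 h per the labels, which gave 4 groups of 3 libraries. The floxed mice go back to embryonic stem cells of the C57BL/6N strain, and the ages of the mice are not given in the sources used here. Nothing states that the 3 libraries of a group came from separate mice, so the p-values below measure only the spread between these libraries.

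A dendritic cell activates a naive T cell with antigen on MHC and with the second signal that costimulatory ligands give. CD80 and CD86 (B7-1 and B7-2) bind CD28 and the inhibitory receptor CTLA-4 on T cells, and ICOSL, of the same B7 family, binds ICOS. CD40, a receptor of the TNF receptor superfamily, takes the signal of CD40 ligand from helper T cells and licenses the dendritic cell. OX40L (Tnfsf4), 4-1BBL (Tnfsf9) and CD70 are TNF superfamily ligands that engage OX40, 4-1BB and CD27 on T cells. CD83 is a surface glycoprotein used as a marker of mature dendritic cells, and it keeps CD86 and MHC class II at the surface by opposing the ubiquitin ligase MARCH1. LPS acts through TLR4 and starts the maturation of dendritic cells.

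The 12 libraries held 29689149 to 34037178 total gene reads, and a gene with 3 reads would stand at 0.0752 to 0.135 CPM (read counts scaled to a common library total with TMM factors). Itgb2, the targeted gene, was at 382, 420 and 379 CPM in untreated CD18fl/fl replicates 1 to 3 and at 121, 163 and 190 CPM in untreated CD18-delta-CD11c. After LPS it was at 167, 171 and 267 CPM against 114, 89.7 and 119 CPM. The reads of all Itgb2 exons are counted in these values, and the groups did not overlap in either state. Among the dendritic cell markers, H2-Ab1 (4239 to 13259 CPM) and Cd74 (1931 to 5483 CPM) were abundant in every library. Both belong to the MHC class II pathway, and the cells had been isolated by surface MHC class II. Zbtb46 was at 19.5 to 37.2 CPM, Ciita at 42.1 to 90.4 CPM and Flt3 at 0.227 to 35.5 CPM. Itgax, which encodes CD11c itself, was at 30.8 to 46 CPM in LPS replicates 1 and 2 of both genotypes. In LPS replicate 3 it was at 284.6 and 284.5 CPM. The macrophage or monocyte marker Adgre1 was at 216 to 641 CPM. Replicate 3 stood apart from replicates 1 and 2 in all 4 groups. The summed level of 6 B cell markers was 1.82 to 3.58 CPM in replicate 3 and 27.3 to 421 CPM in the others. For 8 neutrophil markers the sums were 9.77 to 21.7 CPM in replicate 3 and 42.0 to 1124 CPM elsewhere. Cpa3, a mast cell protease, went the other way, with 15.5 to 115 CPM in replicate 3 and 0 to 5.94 CPM in the others. The part of these cells in the results below was not tested.

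The markers covered a wide range of levels. Levels of different genes were compared as CPM per kb of annotated exon. Cd83 was the highest in each group on average, from 229 ± 132 (SD, n = 3) in untreated CD18fl/fl to 1002 ± 469 in CD18-delta-CD11c with LPS, and Cd86 followed, from 72.9 ± 10.8 to 678 ± 101. Cd83 and Cd86 did not overlap among the CD18fl/fl libraries, whereas they did in both CD18-delta-CD11c groups. In untreated CD18fl/fl the order went on with Tnfsf4 at 28.0 ± 5.13, Cd40 at 12.3 ± 6.24, Cd80 at 10.4 ± 7.63, Tnfsf9 at 9.27 ± 5.25, Icosl at 4.83 ± 0.921 and Cd70 at 2.68 ± 1.93 CPM per kb. From Cd40 downwards each gene overlapped its neighbour in that order. After LPS, Cd40 held the third place in both genotypes, at 144 ± 37.4 CPM per kb in CD18fl/fl and 166 ± 42.5 in CD18-delta-CD11c, and Icosl was last at 3.49 ± 4.44 and 1.60 ± 0.990. In CD18fl/fl with LPS, Cd40 lay above every Tnfsf4 library, while Tnfsf4 and Cd80 overlapped, as did Cd70 with Tnfsf9 and Tnfsf9 with Icosl. In CD18-delta-CD11c with LPS, Cd40 overlapped Tnfsf4 and Tnfsf4 overlapped Cd80, whereas Cd70, Tnfsf9 and Icosl were apart from each other. In untreated CD18-delta-CD11c, Tnfsf4, Cd40 and Cd80 overlapped in that order at 32.5 ± 11.6, 16.2 ± 11.3 and 13.2 ± 6.64 CPM per kb, and Cd70, Tnfsf9 and Icosl did so at 4.51 ± 2.71, 4.49 ± 0.761 and 4.23 ± 0.985. Cd83 in CD18-delta-CD11c with LPS ranked 135th of 12823 genes by the level per kb, and Icosl ranked 7970th.

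**Figure D1:**
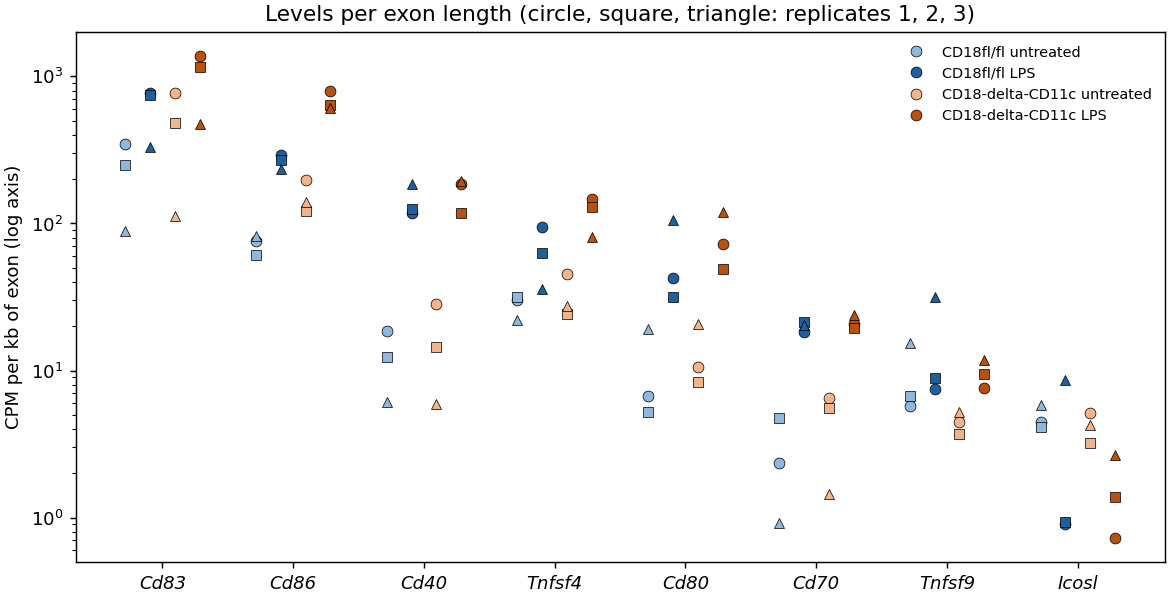
Level of each of the 8 genes in each library, in CPM per kb of exon on a log axis, coloured by group, with circles, squares and triangles for replicates 1, 2 and 3. Cd83 and Cd86 lie at the top, and the LPS libraries of Cd40, Cd80, Cd86 and Cd70 lie above all untreated libraries of the same gene.

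LPS against no treatment asks which of these markers answer a maturation stimulus in each genotype. Most of them were higher with LPS: 7 of 8 were higher in every same-numbered pair of libraries in CD18fl/fl and 7 of 8 in CD18-delta-CD11c, where Icosl was lower in every pair. The edgeR quasi-likelihood test called 3 of 8 members in CD18fl/fl (Cd40, Cd86 and Cd70, all higher), where 2.06% of 12744 tested genes were called higher and 1.83% lower. In CD18-delta-CD11c it called 4 (Cd40, Cd80, Cd86 and Tnfsf4, all higher), against 2.23% higher and 1.76% lower of 12687 genes. Libraries with the same replicate number deviated together, most strongly those of replicate 3. With the replicate number as a term in the fit the calls came to 6 in CD18fl/fl (Cd80, Cd83 and Tnfsf4 added), against 6.33% of genes higher and 6.43% lower. In CD18-delta-CD11c all 8 were then called, 7 higher and Icosl lower, against 10.2% and 9.93% of genes. In bulk RNA, a smaller share of cells that express a gene and less RNA per cell cannot be told apart.

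**Figure D2:**
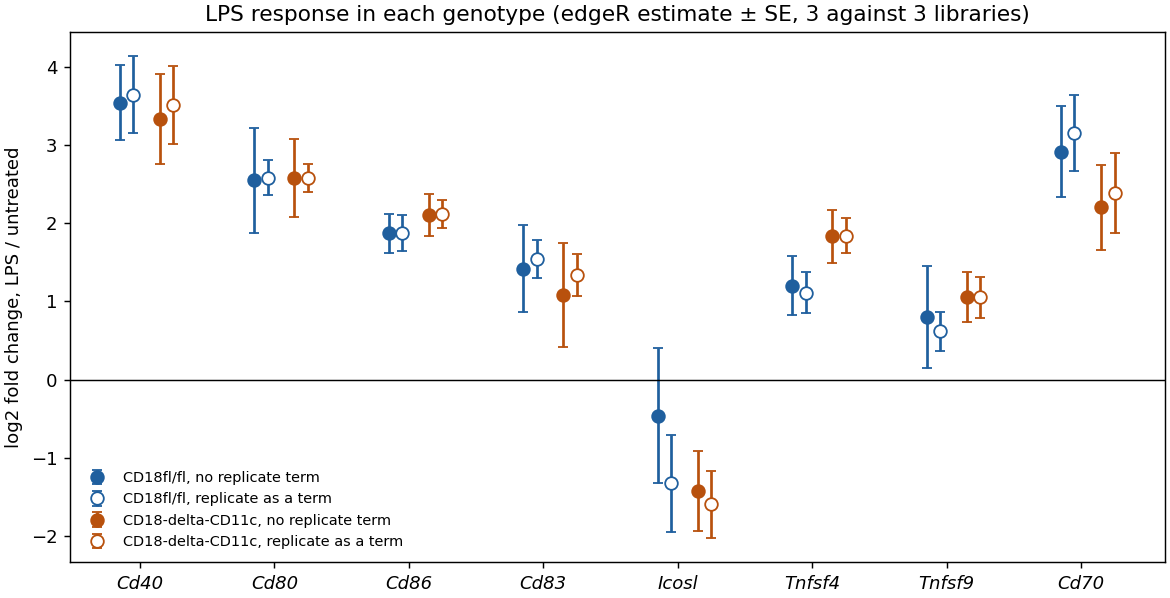
Log2 fold change of LPS over untreated for each gene, in CD18fl/fl (blue) and CD18-delta-CD11c (orange), with points for the edgeR estimate and bars for its SE over 3 against 3 libraries; filled points are fits without and open points with the replicate number as a term. The bars of Cd80 and Cd83 shorten with that term (SE of 0.67 against 0.22 for Cd80 in CD18fl/fl), and Icosl is the gene below 0.

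Among CD40 and the B7 ligands, Cd40 (ENSMUSG00000017652, GRCm39 chr2:164897547-164914868, plus strand) is the one receptor. In CD18fl/fl, Cd40 was at 60.8, 40.4 and 20.0 CPM in untreated replicates 1 to 3 and at 389, 410 and 611 CPM after LPS. All LPS libraries lay above all untreated ones, and replicate 3 had both the lowest untreated and the highest stimulated value, so that the ratio of the pairs went from 6.39 to 30.6. Cd40 rose by 3.54 ± 0.48 (SE) on the log2 scale (adjusted p = 0.0164, edgeR). In CD18-delta-CD11c the values were 92.4, 47.6 and 19.3 CPM untreated and 606, 384 and 641 CPM with LPS, again without overlap. The rise there was 3.33 ± 0.58 (adjusted p = 0.0332, edgeR).

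The 250 bases before the start of the Ensembl-canonical transcript are shown for Cd40, for Icosl, which shares a motif with it and was the one member with a fitted log2 change below 0, and for Cd83, the most abundant marker. They were read from GRCm39 with GENCODE M39 starts, 5′ to 3′ on the strand of the gene. Capitals mark a match on either strand to the NF-κB consensus (Cd40 and Icosl) or to the TATA box, TATAAA (Cd83).
Cd40, chr2:164897294-164897543, plus strand: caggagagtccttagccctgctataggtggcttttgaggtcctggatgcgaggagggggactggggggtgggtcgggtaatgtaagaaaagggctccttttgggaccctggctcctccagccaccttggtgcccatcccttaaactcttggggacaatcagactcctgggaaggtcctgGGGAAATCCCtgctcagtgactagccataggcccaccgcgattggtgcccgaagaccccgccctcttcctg
Icosl, chr10:77904886-77905135, plus strand: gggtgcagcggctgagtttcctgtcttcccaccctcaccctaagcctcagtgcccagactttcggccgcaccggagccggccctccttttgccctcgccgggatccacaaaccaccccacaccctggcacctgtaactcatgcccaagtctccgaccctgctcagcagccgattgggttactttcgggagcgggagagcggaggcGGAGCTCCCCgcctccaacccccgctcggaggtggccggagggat
Cd83, chr13:43938001-43938250, plus strand: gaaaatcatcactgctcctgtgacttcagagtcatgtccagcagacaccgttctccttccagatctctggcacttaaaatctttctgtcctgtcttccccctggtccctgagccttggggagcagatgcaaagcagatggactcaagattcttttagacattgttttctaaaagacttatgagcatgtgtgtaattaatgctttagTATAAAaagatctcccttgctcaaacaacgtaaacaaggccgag
The NF-κB match of Cd40 spans positions -71 to -62 from the start and that of Icosl, on the opposite strand, -45 to -36. Of 21770 promoter windows of this length, 7.62% held an NF-κB match and 11.9% the letters TATAAA at any position. Among the 8 members each was found in 2. The TATAAA match of Cd83 was at -44 to -39, and the other was in Tnfsf9 at -184 to -179. AP-1 (TGANTCA) was matched in Cd80 alone, whose window held 82 bases of annotated exon, and in 6.17% of all windows. The interferon-stimulated response element (ISRE), the GAS element (TTCNNNGAA) and the PU.1 site (GAGGAAGT) were matched in 0 of 8 members, and in 3.32%, 7.70% and 2.08% of all windows. These are matches of letters, not measured binding.

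Cd86 (ENSMUSG00000022901, chr16:36424231-36486443, minus strand) differed by at most 1.61 times between the libraries of a group. It was at 193, 155 and 208 CPM in untreated CD18fl/fl and at 738, 689 and 592 CPM after LPS, and at 501, 311 and 357 CPM against 2014, 1616 and 1537 CPM in CD18-delta-CD11c. In both genotypes every LPS library was above every untreated library. Cd86 rose by 1.87 ± 0.25 in CD18fl/fl (adjusted p = 0.0164, edgeR) and by 2.10 ± 0.27 in CD18-delta-CD11c (adjusted p = 0.0178).

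Cd80 (ENSMUSG00000075122, chr16:38275923-38316697, plus strand), on the same chromosome, had a nearly constant ratio in spite of very different levels. Untreated CD18fl/fl replicates 1 to 3 stood at 24.9, 19.5 and 70.9 CPM and their LPS partners at 159, 117 and 392 CPM, which are pair ratios of 6.38, 6.02 and 5.53. In CD18-delta-CD11c, 38.8, 30.9 and 76.9 CPM became 268, 182 and 444 CPM, with pair ratios of 6.90, 5.88 and 5.77. Replicate 3 was the highest library of Cd80 in all 4 groups, by 1.98 to 3.19 times the mean of replicates 1 and 2, and no groups overlapped within a genotype. Cd80 rose by 2.58 ± 0.50 in CD18-delta-CD11c (adjusted p = 0.0415, edgeR), while the estimate of 2.55 ± 0.67 in CD18fl/fl did not pass (adjusted p = 0.0835). With the replicate number as a term it passed (2.58 ± 0.22, adjusted p = 0.00458, edgeR). Without that term it also passed by DESeq2 (adjusted p = 0.000642), and by edgeR in 3 other settings. These were no filter on low counts (adjusted p = 0.0449), all 12 libraries in the fit (0.0353) and replicates 1 and 2 only (1.8e-06). Reads in introns were the other measure in which the treatments differed for Cd80. Of its reads, 12.3% to 21.5% lay in introns in the untreated libraries of both genotypes and 4.11% to 10.1% with LPS, without overlap. No other member had more than 15.7% of intron reads in any library, and in Cd83 the share was 0.177% to 1.34%.

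Icosl (ENSMUSG00000000732, chr10:77905136-77919747, plus strand) was the exception in direction. It was at 15.9, 14.7 and 20.9 CPM in untreated CD18fl/fl and at 3.24, 3.31 and 30.7 CPM with LPS. LPS replicates 1 and 2 were thus far below all untreated libraries, and replicate 3 was above them, at 9.35 times the mean of the other 2 LPS libraries. The fitted change of -0.46 ± 0.86 in CD18fl/fl did not pass (adjusted p = 0.783, edgeR), and it was -2.23 (adjusted p = 2.86e-05) in a fit on replicates 1 and 2 alone. In CD18-delta-CD11c the values were 18.4, 11.4 and 15.3 CPM untreated and 2.59, 4.94 and 9.52 CPM with LPS, which did not overlap. The change of -1.42 ± 0.51 there gave an adjusted p of 0.166, and -1.59 ± 0.43 with the replicate term (adjusted p = 0.0442, edgeR).

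Cd83 (ENSMUSG00000015396, chr13:43938251-43956608, plus strand) differed widely between replicates. CD18fl/fl had 866, 615 and 220 CPM untreated and 1897, 1841 and 816 CPM with LPS. CD18-delta-CD11c had 1901, 1197 and 280 CPM untreated and 3392, 2883 and 1173 CPM with LPS. Replicate 3 was the lowest in all 4 groups, by 2.29 to 5.53 times against the mean of replicates 1 and 2, and the treatments overlapped in both genotypes. Each LPS library was still above its same-numbered partner, 2.19 to 3.71 times in CD18fl/fl and 1.78 to 4.19 times in CD18-delta-CD11c. The estimates of 1.42 ± 0.56 (adjusted p = 0.186) and 1.08 ± 0.66 (adjusted p = 0.401) passed with the replicate term, at 1.54 ± 0.24 (adjusted p = 0.0146, edgeR) and 1.34 ± 0.27 (adjusted p = 0.0164).

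Of the TNF superfamily ligands, Cd70 (ENSMUSG00000019489, chr17:57452997-57456777, minus strand) had the fewest reads of the members in untreated cells and lay in a narrow band with LPS. Untreated CD18fl/fl libraries had 72, 159 and 29 reads, or 2.00, 3.99 and 0.775 CPM, and LPS libraries had 15.4, 18.1 and 17.3 CPM. CD18-delta-CD11c had 5.52, 4.67 and 1.21 CPM untreated and 17.4, 16.3 and 20.1 CPM with LPS. The treatments did not overlap, and the 6 LPS libraries of both genotypes lay between 15.4 and 20.1 CPM. Cd70 rose by 2.91 ± 0.58 in CD18fl/fl (adjusted p = 0.0443, edgeR), and its estimate of 2.20 ± 0.54 in CD18-delta-CD11c passed with the replicate term (adjusted p = 0.068 without and 0.0201 with it).

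Tnfsf4 (ENSMUSG00000026700, chr1:161222980-161245981, plus strand) was at 55.4, 58.4 and 40.7 CPM in untreated CD18fl/fl and at 174, 116 and 65.9 CPM with LPS. In CD18-delta-CD11c it was at 84.2, 44.7 and 50.6 CPM untreated and at 271, 240 and 150 CPM with LPS. Within each genotype all LPS libraries were above all untreated ones, narrowly in CD18fl/fl. Tnfsf4 rose by 1.83 ± 0.34 in CD18-delta-CD11c (adjusted p = 0.0374, edgeR), and in CD18fl/fl the estimate was 1.20 ± 0.38 (adjusted p = 0.123), or 1.11 ± 0.26 with the replicate term (adjusted p = 0.0435).

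Tnfsf9 (ENSMUSG00000035678, chr17:57412325-57414757, plus strand), which lies near Cd70 on chromosome 17, had a small response. It was at 7.44, 8.70 and 19.8 CPM in untreated CD18fl/fl and at 9.73, 11.4 and 40.8 CPM with LPS, so that the treatments overlapped and replicate 3 was the highest in both. In CD18-delta-CD11c the levels were 5.80, 4.80 and 6.77 CPM and 9.85, 12.2 and 15.2 CPM, without overlap. The estimates were 0.80 ± 0.65 in CD18fl/fl (adjusted p = 0.487) and 1.06 ± 0.32 in CD18-delta-CD11c (adjusted p = 0.117), and of these the second passed with the replicate term (1.05 ± 0.26, adjusted p = 0.0313, edgeR).

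The groups did not overlap for 5 of 8 members in CD18fl/fl and for 7 of 8 in CD18-delta-CD11c, compared with 29.5% and 28.1% of all tested genes. These calls needed replicates 1 and 2. Without any single library numbered 1 or 2 in either group, 0 members were called in both genotypes, with 0 genes of all called in CD18fl/fl and at most 21 higher and 5 lower in CD18-delta-CD11c. On replicates 1 and 2 alone 7 members were called in CD18fl/fl (all but Tnfsf9) and 6 in CD18-delta-CD11c (all but Cd83 and Tnfsf9), Icosl among them as lower. In those fits 23.2% of all genes were called higher and 24.3% lower in CD18fl/fl, and 7.93% and 7.99% in CD18-delta-CD11c.

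**Figure D3:**
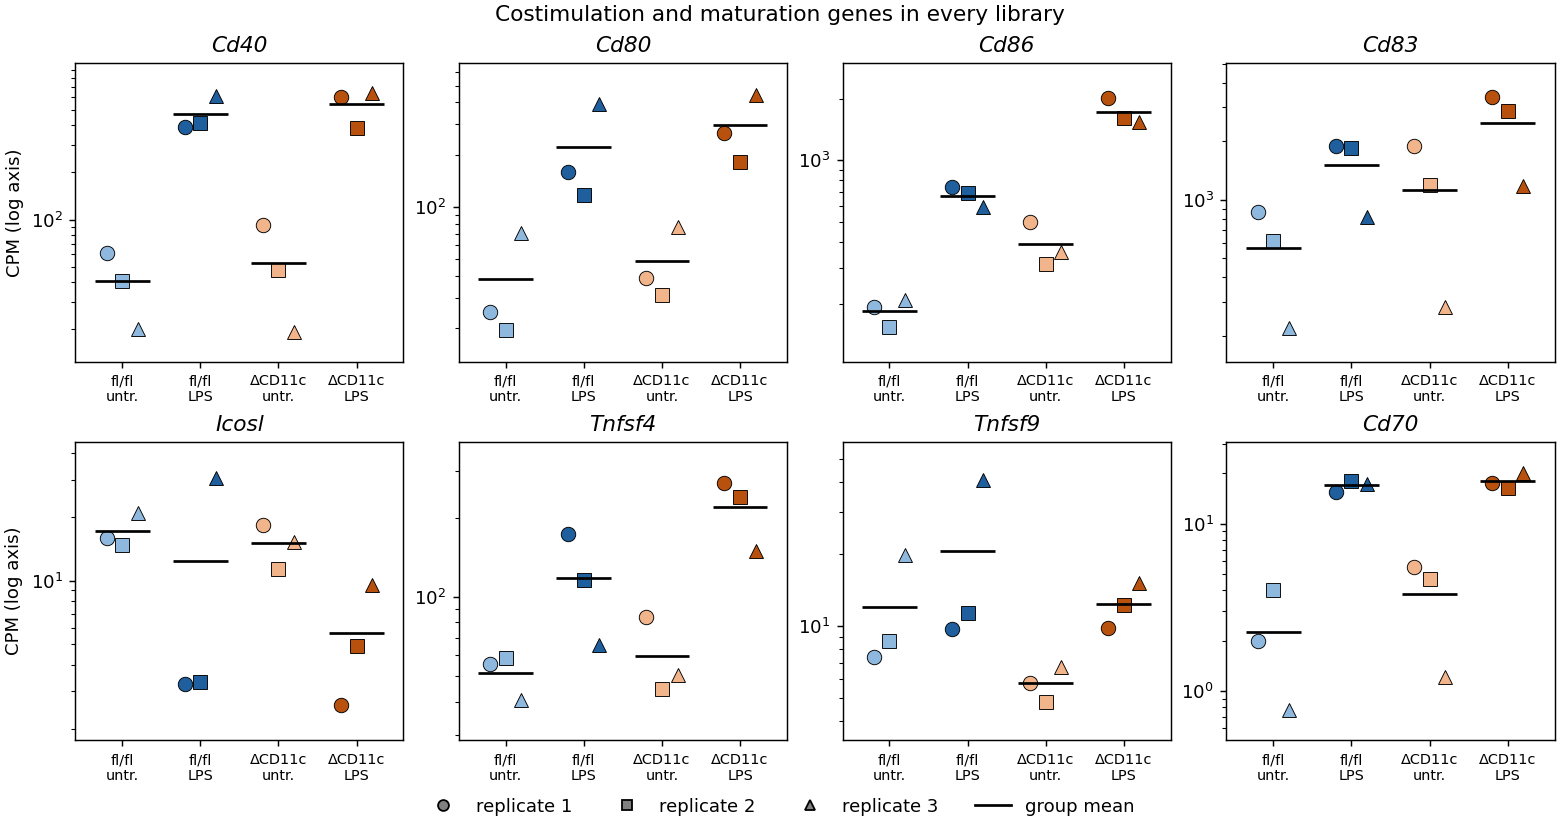
CPM of each gene in every library on log axes, by group (CD18fl/fl in blue and CD18-delta-CD11c in orange, LPS in the dark shade), with circles, squares and triangles for replicates 1, 2 and 3 and a line at the group mean. The triangles of replicate 3 are the highest for Cd80 and Tnfsf9 and the lowest for Cd83 in all 4 groups, and Cd86 has narrow groups with those of CD18-delta-CD11c above those of CD18fl/fl.

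The comparison of the genotypes asks what loss of CD18 does to these markers in resting and in stimulated cells. Cd86 was the member that stood out: every CD18-delta-CD11c library exceeded every CD18fl/fl library in the same state, by 2.60, 2.01 and 1.72 times in untreated replicates 1 to 3 and by 2.73, 2.34 and 2.60 times with LPS. The log2 difference was 1.13 ± 0.25 untreated (unadjusted p = 0.00262, adjusted p = 0.117, edgeR) and 1.33 ± 0.25 with LPS (unadjusted p = 0.00102, adjusted p = 0.286). No gene passed in these fits, 0% of 12876 genes untreated and 0% of 12441 with LPS, although 2159 and 1212 genes had an unadjusted p under 0.05 and DESeq2 called 491 genes higher and 47 lower untreated and 141 higher and 9 lower with LPS, Cd86 among the higher ones in both. With the replicate number as a term Cd86 passed in both states, at 1.11 ± 0.15 (adjusted p = 0.00437, edgeR) and 1.33 ± 0.13 (adjusted p = 0.00641).

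With the replicate term 2 members were called in untreated cells, Cd86 and Cd83, and 3 with LPS, Cd86, Cd83 and Tnfsf4, all of them higher in CD18-delta-CD11c. In those fits 12.1% of genes were called higher and 8.16% lower untreated, and 6.98% higher and 3.16% lower with LPS. Cd83 was higher in each pair, 2.20, 1.95 and 1.27 times untreated and 1.79, 1.57 and 1.44 times with LPS, although the groups overlapped. Its log2 differences were 0.87 ± 0.18 (adjusted p = 0.0159, edgeR) and 0.64 ± 0.13 (adjusted p = 0.0273), against 1.03 ± 0.74 (adjusted p = 0.520) and 0.68 ± 0.49 (adjusted p = 0.710) without the term. Tnfsf4 was 1.56, 2.08 and 2.27 times higher in the LPS pairs (0.93 ± 0.16, adjusted p = 0.0176, against 0.87 ± 0.40 and 0.555 without the term). In untreated pairs its ratios were 1.52, 0.765 and 1.24.

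The other members gave no call between genotypes in either fit. Cd80 was higher in all 6 pairs, by 1.08 to 1.58 times untreated and 1.13 to 1.69 times with LPS, and its adjusted p with the replicate term was 0.0508 and 0.0913. Tnfsf9 was lower in untreated CD18-delta-CD11c without overlap, at 0.780, 0.552 and 0.343 of the same-numbered CD18fl/fl library (-0.87 ± 0.27 with the term, adjusted p = 0.0564), and with LPS its pair ratios were 1.01, 1.07 and 0.373. Cd40 had ratios of 1.52, 1.18 and 0.969 untreated and 1.56, 0.937 and 1.05 with LPS. Cd70 had 2.76, 1.17 and 1.57 on few reads untreated and 1.13, 0.902 and 1.17 with LPS. Icosl had 1.16, 0.777 and 0.730 untreated and 0.8, 1.49 and 0.310 with LPS, the last of them from the high replicate 3 of CD18fl/fl. The groups did not overlap for 2 of 8 members untreated (Cd86 and Tnfsf9) and for 1 of 8 with LPS (Cd86), where 24.8% and 17.6% of all tested genes did not overlap.

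**Figure D4:**
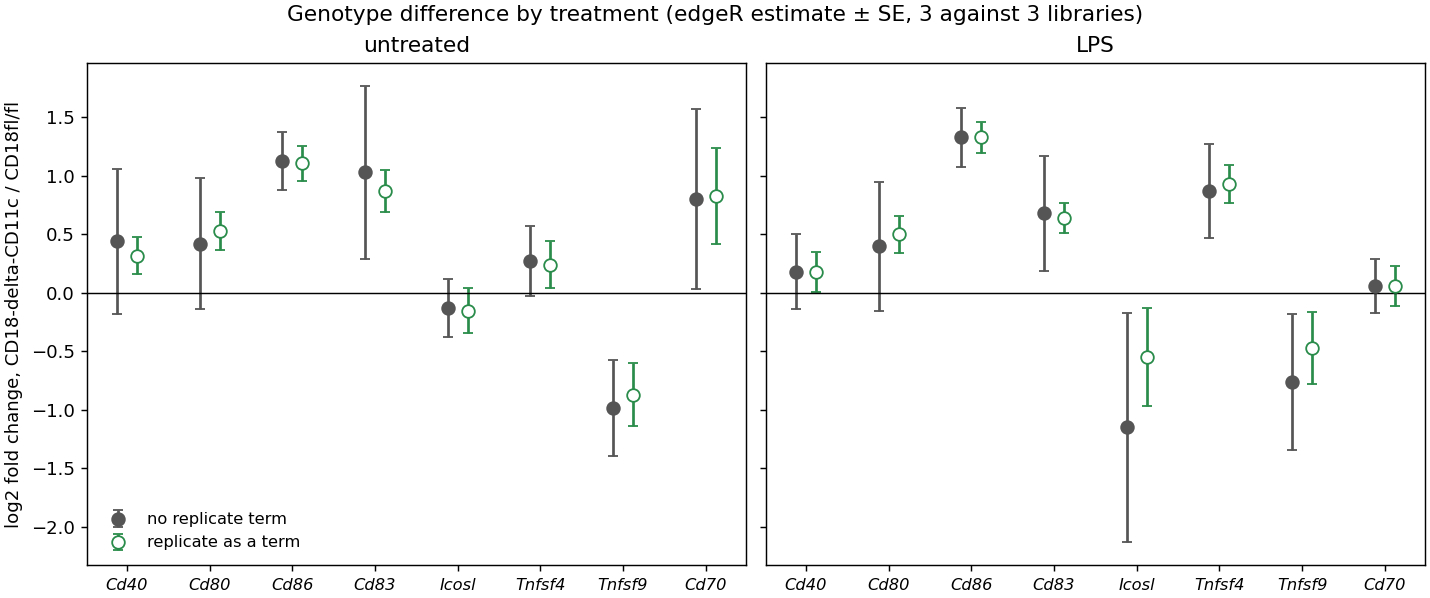
Log2 fold change of CD18-delta-CD11c over CD18fl/fl for each gene in untreated cells (left) and with LPS (right), with the edgeR estimate and its SE over 3 against 3 libraries, without (filled, grey) and with (open, green) the replicate number as a term. Cd86 lies above 1 in both states with short bars (1.13 ± 0.25 and 1.33 ± 0.25 without the term), while Icosl and Tnfsf9 lie below 0.

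The ratio of Cd86 to Cd80 within a library does not depend on scaling between libraries. Per kb of exon it was 11.3, 11.6 and 4.27 in untreated CD18fl/fl and 18.8, 14.7 and 6.77 in untreated CD18-delta-CD11c. With LPS it was 6.77, 8.57 and 2.20 against 11, 13 and 5.05. Each of the 6 CD18-delta-CD11c libraries had a higher ratio than the CD18fl/fl library of the same number and state, and the groups overlapped because replicate 3 was low in all of them. Cd86 exceeded Cd80 per kb in every library, and the ratio was smaller with LPS than without it in each of the 6 pairs. The ratio of Cd86 to Cd83 per kb was 0.217, 0.246 and 0.921 in untreated CD18fl/fl and 0.257, 0.253 and 1.24 in untreated CD18-delta-CD11c. Replicates 1 and 2 thus differed little between the untreated genotypes in this ratio. With LPS it was 0.379, 0.365 and 0.709 against 0.579, 0.547 and 1.28.

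Summed levels of cell type markers were also compared between the genotypes. The dendritic cell sums were 9758.4 to 12408.5 CPM in untreated CD18fl/fl and 12972.2 to 17445.2 CPM in untreated CD18-delta-CD11c, without overlap. H2-Ab1 and Cd74 made up most of this sum, and the listed markers did not move together. Untreated H2-Ab1 was at 4614 to 6567 CPM in CD18fl/fl and 8148 to 13259 CPM in CD18-delta-CD11c. Cd74 went the other way, at 4627 to 5483 against 3123 to 4446 CPM. Flt3 was also lower in each untreated pair (26.4, 35.5 and 2.25 against 10.4, 21 and 0.347 CPM), while Zbtb46, Ciita and Itgax overlapped. With LPS the dendritic cell sums were 8771.5 to 17789.6 against 10492.1 to 12365.2 CPM. The summed level of 6 macrophage or monocyte markers was 892 to 1501 CPM in untreated CD18fl/fl and 786 to 1020 CPM in untreated CD18-delta-CD11c, and with LPS 1403 to 1826 against 1009 to 1199 CPM, without overlap in the stimulated cells. The B cell sums were 3.07 to 421 against 1.82 to 347 CPM untreated and 3.58 to 57.0 against 1.94 to 73.7 CPM with LPS, and those of the neutrophil list were 10.7 to 1124 against 9.77 to 177 and 21.7 to 44.6 against 15.0 to 69.5 CPM. The T cell sums were 11.1 to 35.9 against 4.08 to 36.8 and 3.92 to 7.81 against 4.36 to 7.54 CPM. The mast cell, basophil or eosinophil sums were 5.47 to 35 against 5.87 to 120 and 0.781 to 15.6 against 2.69 to 77.1 CPM. In CD18-delta-CD11c with LPS all 3 natural killer cell markers were at 0. Natural killer cell and plasmacytoid dendritic cell lists summed to at most 1.63 and 21.7 CPM in any library. The part of these cells in the Cd86 difference was not tested.

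Whether the genotypes differ in their answer to LPS was tested by the interaction on all 12 libraries. None of the 8 members passed (adjusted p = 1 for each, edgeR), nor did any of 13752 genes (0%), of which 97 had an unadjusted p under 0.05, and with the replicate term 272 had it and again 0% passed. DESeq2 called 0 genes. The LPS response of Cd86 was larger by 0.28 ± 0.34 on the log2 scale in CD18-delta-CD11c and that of Tnfsf4 by 0.68 ± 0.53 (0.76 ± 0.32 with the replicate term, unadjusted p = 0.0384). The differences were -0.18 ± 0.74 for Cd40, 0.07 ± 0.85 for Cd80, -0.28 ± 0.96 for Cd83, -0.93 ± 1.08 for Icosl, 0.31 ± 0.76 for Tnfsf9 and -0.66 ± 0.80 for Cd70. With errors of this size and without the replicate term, responses that differ by 1 on the log2 scale could not be told from equal ones for these 6 genes.

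The T cell receptors of these ligands were read as well, since some of them are also made by myeloid cells. Tnfrsf9 (4-1BB), the receptor of Tnfsf9, was far above its ligand, at 485 ± 212 CPM in untreated CD18fl/fl, 1571 ± 446 with LPS, 641 ± 115 in untreated CD18-delta-CD11c and 2513 ± 922 with LPS. It rose by 1.92 ± 0.32 in CD18-delta-CD11c (adjusted p = 0.0296, edgeR) and by 1.75 ± 0.38 in CD18fl/fl with the replicate term (adjusted p = 0.036). Cd28 fell with that term in both genotypes (-2.95 ± 0.49, adjusted p = 0.0185, and -2.46 ± 0.67, adjusted p = 0.0442), from 5.56 ± 3.39 to 0.882 ± 0.727 CPM in CD18fl/fl. The summed level of 6 T cell markers went from 11.1 to 35.9 CPM without LPS to 3.92 to 7.81 CPM with it in CD18fl/fl, and from 4.08 to 36.8 CPM to 4.36 to 7.54 CPM in CD18-delta-CD11c, and its part in the fall of Cd28 was not tested. Tnfrsf4 (OX40) averaged 9.31 to 12.1 CPM in the 4 groups, Icos 0.988 to 3.85 CPM and Ctla4 0.470 to 1.27 CPM. Cd27, the receptor of CD70, averaged at most 0.0932 CPM, and Cd40lg had no reads in any library. Without the term 1 of 5 tested receptors was called, in CD18-delta-CD11c, where 2.23% of all genes were called higher and 1.76% lower. With the term these shares were 10.2% and 9.93%, and in CD18fl/fl 6.33% and 6.43%.

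Other ligands and receptors of the B7 and related families split by direction. Of 16 tested, 3 rose with LPS in CD18fl/fl and 1 fell, with a median log2 change of 1.32 against -0.02 over all genes. Cd200 rose by 3.13 ± 0.50 (adjusted p = 0.0272, edgeR), Slamf6 by 1.82 ± 0.38 and Pvr by 1.68 ± 0.30, and Vsir, which encodes the inhibitory ligand VISTA, fell by 1.79 ± 0.34 on the log2 scale (adjusted p = 0.0391). In CD18-delta-CD11c, Cd200 rose by 3.01 ± 0.34 (adjusted p = 0.0131) and Cd274, which encodes PD-L1, by 2.31 ± 0.41 (adjusted p = 0.0342), and Vsir changed by -2.03 ± 0.36 (adjusted p = 0.0342), with a median of 0.92 against -0.01. With the replicate term 8 rose and 1 fell in CD18fl/fl, and 7 rose and 2 fell in CD18-delta-CD11c. Of all genes, the LPS fits without the term called 2.06% higher and 1.83% lower in CD18fl/fl, and 2.23% and 1.76% in CD18-delta-CD11c. With the term these shares were 6.33% and 6.43%, and 10.2% and 9.93%. Between genotypes 0 of 16 were called in either state. With the replicate term 12.1% of all genes were called higher and 8.16% lower untreated, and 6.98% and 3.16% with LPS. Of these 16, 3 were higher (Pdcd1lg2, Cd48 and Cd244a) and 1 lower (Vsir) in untreated CD18-delta-CD11c, and with LPS 0 were higher and 4 lower. These 4, named after their values were seen, were Vsir (-1.35 ± 0.16, adjusted p = 0.00677), Pvr (-0.98 ± 0.15, adjusted p = 0.0127), Cd274 (-0.93 ± 0.14, adjusted p = 0.0109) and Nectin2 (-0.81 ± 0.15, adjusted p = 0.0225, edgeR). Cd274 averaged 839 ± 196 CPM in CD18fl/fl with LPS and 450 ± 130 CPM in CD18-delta-CD11c, the reverse of the order of Cd86 at 673 ± 74.0 and 1722 ± 255 CPM.

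Among 10 other tested TNF superfamily ligands, 2 rose and 2 fell with LPS in each genotype, with medians of -1.22 in CD18fl/fl and -0.48 in CD18-delta-CD11c. Tnfsf15 (TL1A), a costimulator of T cells through DR3, rose by 5.32 ± 0.50 (adjusted p = 0.0127, edgeR) and 5.73 ± 0.55 (adjusted p = 0.0115), from 2.06 ± 0.867 to 82.4 ± 33.1 CPM and from 2.02 ± 0.505 to 109 ± 60.8 CPM. Tnfsf10 (TRAIL) rose by 2.96 ± 0.62 and 2.69 ± 0.54. Ltb, a subunit of membrane lymphotoxin, changed by -3.32 ± 0.43 (adjusted p = 0.0162) and -2.96 ± 0.35 (adjusted p = 0.0146). Tnfsf12 (TWEAK) fell in CD18fl/fl (-1.61 ± 0.30) and Tnfsf14 (LIGHT) in CD18-delta-CD11c (adjusted p = 0.0364), from 2.71 ± 0.988 CPM to 0.0216 ± 0.0374 CPM, which is below the level of 3 reads. With the replicate term 4 rose and 4 fell in both genotypes. Of all genes, the LPS fits without the term called 2.06% higher and 1.83% lower in CD18fl/fl, and 2.23% and 1.76% in CD18-delta-CD11c. With the term these shares were 6.33% and 6.43%, and 10.2% and 9.93%. Between genotypes 0 were called without the term, and with it Tnfsf8 and Ltb were higher in untreated CD18-delta-CD11c and Tnfsf8 with LPS. In those fits with the term 12.1% of all genes were called higher untreated and 6.98% with LPS.

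Of 20 genes of CD40 signalling, the TRAF adaptors, IKK kinases and NF-κB subunits that act below CD40, 0 passed in any comparison without the replicate term, with medians of 0.75 in CD18fl/fl and 0.71 in CD18-delta-CD11c for LPS. With the term 6 rose in CD18fl/fl and 7 in CD18-delta-CD11c, and Traf1, Traf2, Tnfaip3, Rel, Tank and Map3k14 rose in both. For LPS the term called 6.33% of all genes higher and 6.43% lower in CD18fl/fl, and 10.2% and 9.93% in CD18-delta-CD11c. Between genotypes the term called 12.1% of all genes higher and 8.16% lower untreated, and 6.98% and 3.16% with LPS. Among these 20 it gave 2 higher (Tank and Traf5) and 3 lower (Rela, Tnfaip3 and Ikbkg) in untreated CD18-delta-CD11c. With LPS it gave 1 higher and 0 lower. The one called in both states was Tank (1.07 ± 0.16 and 1.14 ± 0.14, adjusted p = 0.00579 and 0.00708, edgeR). Of 22 genes of the maturation programme of dendritic cells, 22 were tested in CD18fl/fl with 0 called and 21 in CD18-delta-CD11c with 1 called, Il12b, which rose by 4.83 ± 1.00 (adjusted p = 0.046, edgeR). With the replicate term 7 rose in each genotype, and 6 of these, Il12b, Ccl5, Ccl17, Il15, Il15ra and Stat5a, were shared. Between genotypes 0 were called without the term. With it 2 of 21 were higher and 2 lower in untreated CD18-delta-CD11c, and 1 higher and 2 lower with LPS. The shares of all genes given above for these fits apply here too. Ccr7, the receptor that guides mature dendritic cells to lymph nodes, already averaged 1592 ± 1170 CPM in untreated CD18fl/fl and 1166 ± 865 CPM in untreated CD18-delta-CD11c. Of 9 genes of MHC class II presentation and the ligases that act on CD86, H2-DMa alone was called for LPS against untreated. It fell with LPS in CD18-delta-CD11c (-1.48 ± 0.27, adjusted p = 0.0378, edgeR). Between genotypes 0 of the 9 were called without the replicate term. With the term H2-Ab1 alone was called, higher in untreated CD18-delta-CD11c (10339.4 ± 2632.4 against 5857.5 ± 1080.1 CPM). Marchf1, the ligase that removes CD86 from the surface, averaged 71.5 ± 50 CPM in untreated CD18fl/fl and 79.5 ± 13.6 CPM in untreated CD18-delta-CD11c, and 115 ± 26.4 against 106 ± 43.8 CPM with LPS.

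The genes most like each member in profile were found by the root-mean-square difference of gene-centred log2 CPM over the 12 libraries. Cd40 was nearest to Usp18 (0.36) and Mx2 (0.50), both known as interferon-induced genes, and Cd70 to Gbp2 (0.44) and Ifi47 (0.48), both interferon-induced GTPases. Cd40 and Cd70 were also the nearest members to each other, at 0.61, where the median of all genes was 2.03 from Cd40 and 1.73 from Cd70. Cd86 was nearest to Nt5c3 (0.36) and Cd1d1 (0.38), Cd80 to Adhfe1 (0.40) and Ece1 (0.44), and Cd83 to Mmp20 (0.29) and Fas (0.32). Tnfsf4 was nearest to Rnf180 and Ccdc50 (0.34 each), Tnfsf9 to Kdm6b (0.29) and Itgav (0.33), and Icosl to Nol6 and Slc4a7 (0.40 each). Icosl had no member nearer than Tnfsf9 at 1.25, and its median distance from all genes was 1.31. All these profiles share their 12 libraries.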

How the data were processed

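RNA-seq counts of 12 libraries, 3 in each of 4 groups, were used. The authors isolated MHC class II-positive BMDCs and mapped and counted the reads in CLC Genomics Workbench v22.0 with default settings against GRCm39 according to the paper's methods, whereas the submitters' processing notes name GRCm38. The gene spans in the tables overlapped those of GENCODE M39 on GRCm39 for 8 of 8 members, with ends at most 187 bases apart. The methods speak of overnight LPS treatment where the labels give 24 h. The deposited total gene reads are raw read counts, and 95.12% to 96.19% of them were unique per the deposited tables. The authors also deposited TPM and RPKM, which were not used here. No library was a copy of another (lowest chi-squared per degree of freedom 43.5 among 66 pairs).

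Counts were tested with edgeR 4.0.16 in R 4.3.3: filterByExpr with a minimum count of 10, TMM factors, glmQLFit and glmQLFTest on the 6 libraries of a comparison (12 for the interaction), Benjamini-Hochberg adjustment over all genes tested and a threshold of 0.05. All 8 members passed the filter in each comparison. The SE is the log2 fold change over the square root of F. CPM used TMM factors over 12 libraries, and profiles used a prior count of 2. Same-numbered libraries of different groups correlated in their deviations from the group means (0.265 to 0.716 over 13752 genes, differently numbered ones -0.571 to 0.334). In each comparison the highest value was that of replicate 3 (0.524 to 0.716). Numbers 1 and 2 were less distinct. In CD18fl/fl, LPS replicate 2 correlated at 0.278 with untreated replicate 1 and at 0.265 with untreated replicate 2. The replicate numbers come from the labels, which do not say what a number shares, and fits with the number as a block are given where they change a call. The members and gene lists were chosen with earlier results of these data known. The genes named were the members, Itgb2, the 2 nearest profiles of each member, up to 3 called genes per direction and list, and all genes of lists of 8 or fewer. Ccr7, Marchf1, Tank, the cell type markers with their own values and the genes called with the replicate term alone were chosen after their values were seen. Alternatives were DESeq2 1.42.0, RLE factors, library size alone, no filter or a minimum count of 30, unique reads, an exon length offset, all 12 libraries in the fit, and left-out libraries. The scripts were tested on simulated counts. One of the lists of cell type markers is not reported here.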

Additional observations from a re-analysis of the deposited data

How the results depend on the processing

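The same 8 genes were read under each alternative. In CD18fl/fl, 3 members were called for LPS, and 5 by DESeq2, 6 with the replicate block (6 also with an exon length offset), 7 on replicates 1 and 2 only and 0 to 5 with 1 library left out. In CD18-delta-CD11c the 4 calls became 8 with the block, with or without the length offset, and 0 to 5 with 1 library left out. Between untreated genotypes the count of 0 became 1 by DESeq2, 2 with the block, 4 with length offset and block (Cd80 and Tnfsf9 added) and 2 on replicates 1 and 2 only. With LPS it became 1 by DESeq2, 1 on replicates 1 and 2 only, 1 with all 12 libraries in the fit, 3 with the block and 3 with length offset and block. Between genotypes, length offset and block called 1002 genes higher and 606 lower of 12236 untreated, and 650 and 283 of 11818 with LPS. For LPS against untreated that setting called 898 and 840 of 12122 genes in CD18fl/fl, and 1361 and 1208 of 12049 in CD18-delta-CD11c. Cd70 lost its call in CD18fl/fl with library size scaling (adjusted p = 0.0627, edgeR) and with the exon length offset (0.0567), which left 2 calls, and Cd80 lost its call in CD18-delta-CD11c with library size scaling (0.0609), which left 3. The cause was not tested. The block changed no other call than those given above. It moved the genes called higher and lower with LPS from 263 and 233 to 807 and 820 in CD18fl/fl (969 and 826 by DESeq2, 568 and 500 with 12 libraries, 3000 and 3140 on replicates 1 and 2), and from 283 and 223 to 1300 and 1260 in CD18-delta-CD11c (776 and 755, 513 and 470, 1021 and 1028). With no filter on low counts they were 378 and 313, and 436 and 369. Between genotypes 0 genes became 1555 higher and 1051 lower with the block untreated and 869 and 393 with LPS, 1034 and 349, and 402 and 121, on replicates 1 and 2, and 17 and 2, and 43 and 2, with 12 libraries.

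Scaling by library size alone moved the median of all genes by -0.30, -0.22, -0.39 and -0.26 on the log2 scale in the 4 comparisons between 2 groups, and gave 143 genes higher and 304 lower with LPS in CD18fl/fl and 186 and 300 in CD18-delta-CD11c. The genotype difference of Cd86 was then 0.74 untreated and 1.08 with LPS. Directions that turned belonged to members with no call. Untreated, Tnfsf4 was at -0.13 by library size and -0.01 with length offset and block, and Icosl at 0.02 on replicates 1 and 2. With LPS, Cd40 was at -0.08 by library size, Cd70 at -0.18 by library size, -0.46 and -0.47 with the length offset without and with the block and -0.02 on replicates 1 and 2, where Icosl was at 0.17 and Tnfsf9 at 0.03. In the interaction, Cd80 was at -0.01 with a minimum count of 30, -0.03 with length offset and block and -0.00 on replicates 1 and 2, where Icosl was at 0.18.

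With 1 library left out, Tnfsf9 ran from -0.17 to 1.36 for LPS in CD18fl/fl. Untreated, Cd40 ran from -0.21 to 0.87, Cd80 from -0.07 to 1.18, Icosl from -0.31 to 0.01 and Tnfsf4 from -0.06 to 0.43. With LPS, Cd80 ran from -0.04 to 1.08, Icosl from -1.78 to 0.77, Tnfsf9 from -1.06 to 0.20 and Cd70 from -0.06 to 0.13. The interaction ran from -0.70 to 0.48 for Cd40, -0.78 to 0.65 for Cd80, -0.85 to 0.33 for Cd83, -1.53 to 0.90 for Icosl and -0.32 to 1.16 for Tnfsf9. Cd86 kept its direction in each of the 4 comparisons under every alternative (0.74 to 1.28 untreated and 1.08 to 1.41 with LPS between genotypes, left-out libraries included), and RLE factors and unique reads left each count of member calls as it was. Depth limited Cd70 and Icosl, with as few as 29 and 64 reads in a library. The exon length offset could be fitted only for genes with an exon length.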
